A study of Mus musculus with 8 samples.

Results

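Early epithelial genes were followed through H3K36me3 ChIP–seq of fibroblasts at an early stage of OSKM reprogramming. The 9 genes, Cdh1, Epcam, Ocln, Cldn3, Cldn4, Krt8, Krt18, Dsp and Esrp1, were chosen by name out of 21853 protein-coding genes with a gene body in GENCODE M21 (mm10). No measured value entered the rule, but the choice was made with earlier results of these data known. A gene body here is the longest protein-coding transcript from its start to its end, and genes with few exons, such as the single-exon claudins, were kept.

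All cells were mouse embryonic fibroblasts (MEFs) of 1 line, labelled Clone 1, taken from an E13.5 embryo and carrying a doxycycline-inducible cassette of Oct4, Sox2, Klf4 and Myc (OSKM). All were held for 72 h in iPSC medium. MEF cells received nothing further, MEF B12 cells received 2 µM vitamin B12, OSKM cells 1 µg/ml doxycycline, and OSKM B12 cells both agents. For each condition there was 1 library of H3K36me3 and 1 of its input, so no difference between conditions has a replicate check and no test was made. The line was the one that reprogrammed best among those the authors had tried, and the cassette is present in the MEF and MEF B12 cells too, where it is not induced.

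Fibroblasts that are driven towards pluripotency pass through a mesenchymal-to-epithelial transition, in which they lose mesenchymal adhesion and shape and acquire junctions and a simple-epithelial keratin skeleton. H3K36me3 is laid down by SETD2 on nucleosomes behind elongating RNA polymerase II, so the mark lies over the bodies of transcribed genes and tends to strengthen towards the 3′ end. A peak of this mark in a gene body is therefore read as a trace of transcription that has already passed through the gene.

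The H3K36me3 libraries held 32582688 (MEF), 29046913 (MEF B12), 33399267 (OSKM) and 29627886 (OSKM B12) tags and gave 65473 to 69420 peaks on the assembled chromosomes. Vim, Fn1, Col1a1, Pdgfra and the rest of the 10 fibroblast markers had a peak in every library. None of the 4 markers of stratified epithelium (Krt5, Krt14, Krt15 and Trp63) had one in any library. Of the other cell types, Pecam1, Cdh5, Ptprc, Tyrobp and Sox10 were at 0 throughout, whereas Tek, Csf1r, Cd68 and Elavl3 had a peak in every library. The Cd68 peak also ran over its neighbour Eif4a1, and those at Csf1r also lay over Hmgxb3.

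The promoters were examined for what the 9 genes share in sequence. Snail and ZEB proteins, the repressors that hold epithelial genes silent in mesenchymal cells, bind E-boxes of the letters CACCTG, which read CAGGTG on the other strand. RefSeq promoters (GRCm38.p6, 250 bases before to 50 bases after the start site) were matched for 7 of the 9 genes, namely Epcam, Ocln, Cldn3, Cldn4, Krt8, Krt18 and Dsp. All 7 held at least 1 of these hexamers in at least 1 promoter, against 20.2% of the 32851 promoters of that length and 22.6% of the 27025 gene symbols. Epcam, Cldn4 and Ocln had a pair of matches each and are shown from 250 bases before to 30 bases after the start site, 5′ to 3′ on the strand of the gene, with the matches in capitals.

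Epcam, chr17:87635729-87636008, plus strand: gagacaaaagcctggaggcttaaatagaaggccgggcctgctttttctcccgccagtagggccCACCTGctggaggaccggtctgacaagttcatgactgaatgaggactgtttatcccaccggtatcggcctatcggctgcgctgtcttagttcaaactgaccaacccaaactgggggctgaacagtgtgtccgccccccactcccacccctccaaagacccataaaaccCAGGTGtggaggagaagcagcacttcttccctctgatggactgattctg
Cldn4, chr5:134946905-134947184, minus strand: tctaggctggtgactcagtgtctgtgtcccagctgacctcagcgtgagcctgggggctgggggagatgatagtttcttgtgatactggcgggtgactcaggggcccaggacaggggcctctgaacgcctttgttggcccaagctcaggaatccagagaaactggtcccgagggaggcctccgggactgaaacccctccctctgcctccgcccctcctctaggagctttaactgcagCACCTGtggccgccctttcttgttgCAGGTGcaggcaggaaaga
Ocln, chr13:100552469-100552748, minus strand: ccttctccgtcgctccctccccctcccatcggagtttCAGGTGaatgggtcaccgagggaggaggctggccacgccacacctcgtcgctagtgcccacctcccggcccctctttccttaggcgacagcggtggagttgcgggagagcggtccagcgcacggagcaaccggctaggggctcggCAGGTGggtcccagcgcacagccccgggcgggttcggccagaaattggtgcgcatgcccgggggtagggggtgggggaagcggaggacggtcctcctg

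Counted from the start site as base 1, with the base before it as -1, the Epcam matches begin at -187 and -19 and those of Ocln at -213 and -68. In Cldn4 the first begins at -14 and the second at base 12 of the transcript. Ocln has a second RefSeq promoter, 220 bases further upstream, whose only match is the CAGGTG at -213 of the first. The other 4 promoters held 1 match each and are shown as short stretches around it.

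Cldn3, chr5:134986233-134986262, plus strand: caaagccacaggCAGGTGcaggggcagtct
Krt8, chr15:102004428-102004473, minus strand: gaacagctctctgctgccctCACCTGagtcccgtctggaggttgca
Krt18, chr15:102027982-102028027, plus strand: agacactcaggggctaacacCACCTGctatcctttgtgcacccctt
Dsp, chr13:38151277-38151322, plus strand: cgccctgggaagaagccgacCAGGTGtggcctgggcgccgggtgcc

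The match lies at base 32 of the Cldn3 transcript and at base 4 of that of Dsp, and at -111 and -214 from the RefSeq start sites of Krt8 and Krt18. These matches describe the letters only. They are not evidence of binding.

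No H3K36me3 peak was called in the body of any of the 9 epithelial genes in any library. The covered share, that is, the percent of gene-body bases under a peak, was therefore 0% for each gene in each of the 4 libraries. So was the density, the peak pileup averaged over the gene body per 1000000 tags. The 4 libraries did not differ at these genes by any of these measures. Among all protein-coding genes, 51.4% carried at least 1 peak base in MEF cells and 52.2% in MEF B12 cells, 48.2% in OSKM cells and 52.6% in OSKM B12 cells, and 44.4% had none in any of the 4. All 9 epithelial genes fell among the genes without a peak in any library, and no test was made of this count against the share over all genes.

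No epithelial gene had a peak in the libraries with doxycycline, with vitamin B12 or with both. Over all genes, 1.48% had a peak in OSKM and none in MEF, and 4.63% the reverse. With vitamin B12, 1.89% had a peak in OSKM B12 and none in MEF B12, and 1.42% the reverse. A peak in both doxycycline libraries and in neither other library was found for 0.188% of genes, and the reverse for 0.439%. The count of epithelial genes was 0 of 9 in every one of these classes.

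Cdh1 encodes E-cadherin, the calcium-dependent adhesion molecule of epithelial adherens junctions. Its gene (chr8:106603351-106670246, plus strand, 16 exons) is the longest of the group at 66.9 kb, and no stretch of it was called. Epcam, an epithelial adhesion molecule of the cell surface, spans 15.1 kb (chr17:87635979-87651106, plus strand, 10 exons) and was equally without a peak.

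The tight-junction genes Ocln, Cldn3 and Cldn4 differ widely in length. Ocln, which encodes the transmembrane protein occludin, spans 56 kb (chr13:100496507-100552498, minus strand, 9 exons). Cldn3 and Cldn4 encode claudins, the strand-forming proteins that set the permeability of the junction. They are single-exon genes of 1.26 kb (chr5:134986214-134987472, plus strand) and 1.82 kb (chr5:134945119-134946934, minus strand), which lie 39.3 kb apart. The non-coding gene Wbscr25 overlaps Cldn3.

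Krt8 and Krt18 encode partner keratins of simple epithelia, which form filaments together. Krt8 (chr15:101996698-102004482, minus strand, 9 exons, 7.79 kb) and Krt18 (chr15:102028180-102032027, plus strand, 7 exons, 3.85 kb) stand 23.7 kb apart with their starts facing each other. Dsp encodes desmoplakin, which ties keratin filaments to desmosomes, and spans 47.3 kb (chr13:38151294-38198577, plus strand, 24 exons). Esrp1, a splicing factor that imposes the epithelial pattern of exon use, spans 54.9 kb (chr4:11331933-11386783, minus strand, 14 exons). The non-coding genes Gm36026, Gm10129 and Gm26663 overlap Krt8, Dsp and Esrp1, respectively, and their bases within these bodies carried no peak either.

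Gene length bears on how often a peak is found. Among the 1630 genes under 2 kb, the class of Cldn3 and Cldn4, 88.5% had no peak in any library, and 63.7% of the 2664 genes of 2 to 5 kb, the class of Krt18, had none. Of the 7671 genes of 5 to 20 kb, the class of Epcam and Krt8, 46.4% had none. Cdh1, Ocln, Dsp and Esrp1 fall among the 7497 genes of 20 to 100 kb, of which 30.3% had none. At least 62.8% of the genes in that class had a peak in each library, so the 4 long epithelial genes were at 0 in the class where peaks were most frequent.

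**Figure D1:**
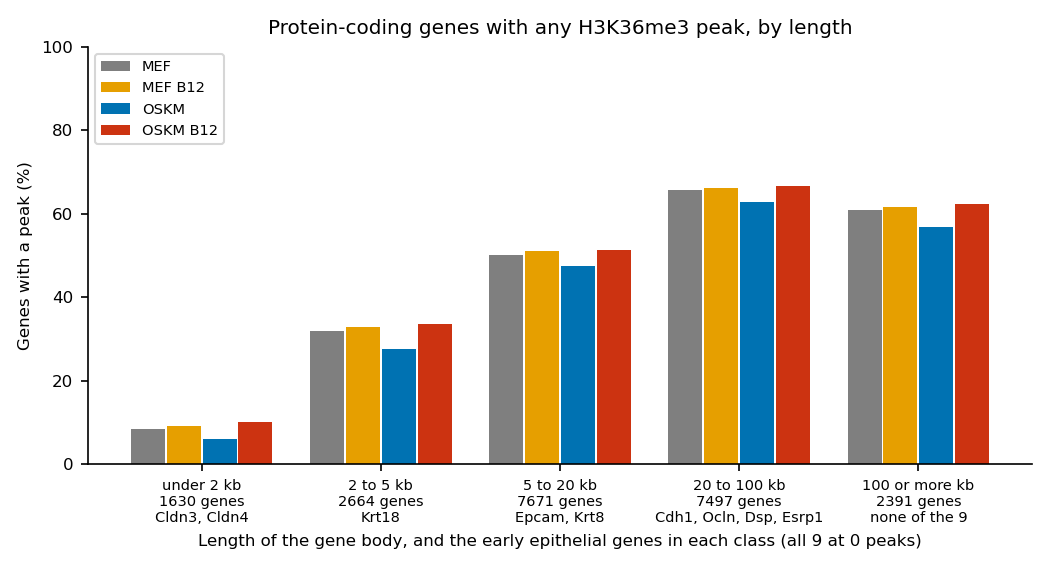
Share of protein-coding genes with at least 1 H3K36me3 peak base in the gene body (y axis, percent), in 5 classes of gene length (x axis), with 1 bar for each library. The early epithelial genes named under each class had no peak in any library, and the share of all genes with a peak was lowest under 2 kb (5.95% to 10.1%) and highest from 20 to 100 kb (62.8% to 66.7%).

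What a missing peak can show is set by the depth and by the peak calling. The lowest pileup of any peak was 8 fragments in MEF, MEF B12 and OSKM B12 and 9 in OSKM, whereas the tags averaged 3.59, 3.19, 3.27 and 3.63 fragments per sequenced base, respectively. The lowest listed peak thus stood at 2.23 to 2.51 times the genome-wide mean, and no weaker peak is listed. This is the lowest value seen and not a calling threshold. Peaks were called against each library's own input, so signal above this level can be uncalled too. The shortest peak was 1 fragment length, 288 to 292 bases. Such a peak would fill 23.2% of Cldn3 and 16.1% of Cldn4, but 0.436% of Cdh1 and 0.522% of Ocln.

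Reads that matched more than 1 place in the genome had been discarded, so the uniqueness of each gene was measured. Of all 75-base windows, the read length, 98% to 100% occurred only once in the assembly for every epithelial gene except Krt8, at 93%. Within the exons of Krt8, 62.9% of windows were unique, against 100% in the exons of the other 8 genes. Reads from the remaining Krt8 exon windows could not enter the peak calls. Only exact copies were counted, whereas the authors' alignment allowed mismatches. Reads from windows with a near copy elsewhere may therefore also have been discarded, and how many was not measured. Signal from a small share of cells that had changed state and a weak mark in every cell cannot be told apart in these bulk libraries.

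The surroundings of the 9 genes were not devoid of the mark. No peak lay within 3 kb of any of the 9 bodies, and peaks came within 10 kb of 3 of them (Ocln, Cldn4 and Dsp). With 3 kb added to each side, 40.8% of all genes still had no peak in any library, and with 10 kb added 35.7% had none.

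Ocln lay nearest to the mark in MEF, MEF B12 and OSKM. Its closest peak began 6.88 kb beyond the 3′ end in MEF, 6.45 kb in MEF B12, and 6.63 kb in both OSKM and OSKM B12. That peak belongs to Gtf2h2, which encodes a subunit of the transcription factor TFIIH and has 73% of its body covered in MEF cells and 82.1% in MEF B12 cells, 40% in OSKM cells and 80.6% in OSKM B12 cells. The mark over Gtf2h2 was thus dense in all 4 libraries and lowest in OSKM. Towards Ocln it ended within the body of Gtf2h2, which lies 3.94 kb from Ocln.

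Around Cldn4, the nearest peak was 9.08 kb beyond the 3′ end in MEF, 8.77 kb in MEF B12 and 8.8 kb in OSKM. In OSKM B12 an additional peak lay at 3.92 kb. Both positions fall in Mettl27, a gene with 9.87%, 15%, 3.51% and 19% of its body covered in the order MEF, MEF B12, OSKM, OSKM B12. The additional peak had a −log10 q of 2.005 and a pileup of 11.66 fragments. It is the only peak within 5 kb of an epithelial gene body in any library.

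Dsp was followed at 9.31 kb (MEF), 9.46 kb (MEF B12), 11.8 kb (OSKM) and 9.43 kb (OSKM B12) by peaks of Snrnp48, which encodes a component of the minor spliceosome. Snrnp48 had 74.8%, 79.4%, 48% and 85.1% of its body covered in the same order. Esrp1 was followed by Dpy19l4, whose nearest peak was 14.7, 14.1, 14.6 and 12.8 kb away and whose covered share was 66.4%, 75.8%, 35.9% and 69.8%. Both of these long, unmarked genes therefore ended close to a neighbour that was marked over much of its length in MEF, MEF B12 and OSKM B12 and less so in OSKM.

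Cdh3, the gene for P-cadherin, lies upstream of Cdh1 on the same strand, with the unmarked gene Gm10073 between them. Cdh3 was marked, with 41.8% of its body covered in MEF cells and 43% in MEF B12 cells, 26.3% in OSKM cells and 37.1% in OSKM B12 cells. The nearest peak upstream of Cdh1 was 43.6 to 47.6 kb away in the 4 libraries, and the nearest downstream peak, in Tango6, was 18.1 to 26.3 kb away. Cdh3 thus carried the mark in every library and Cdh1 in none. Upstream of Epcam, the nearest peak was 194 to 196 kb away.

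The keratin pair sat far from any peak. From Krt18 the nearest peak, in the translation factor gene Eif4b, was 47.2 to 49.9 kb away, and from Krt8 it was 74.8 to 77.4 kb away. On the side of the type II keratin cluster, no peak was called for 619 to 705 kb beyond Krt8. Krt78, the nearest protein-coding neighbour on that side, had no peak in any library. Cldn3 was followed by Abhd11, with a nearest peak 21.5 to 23.6 kb away.

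**Figure D2:**
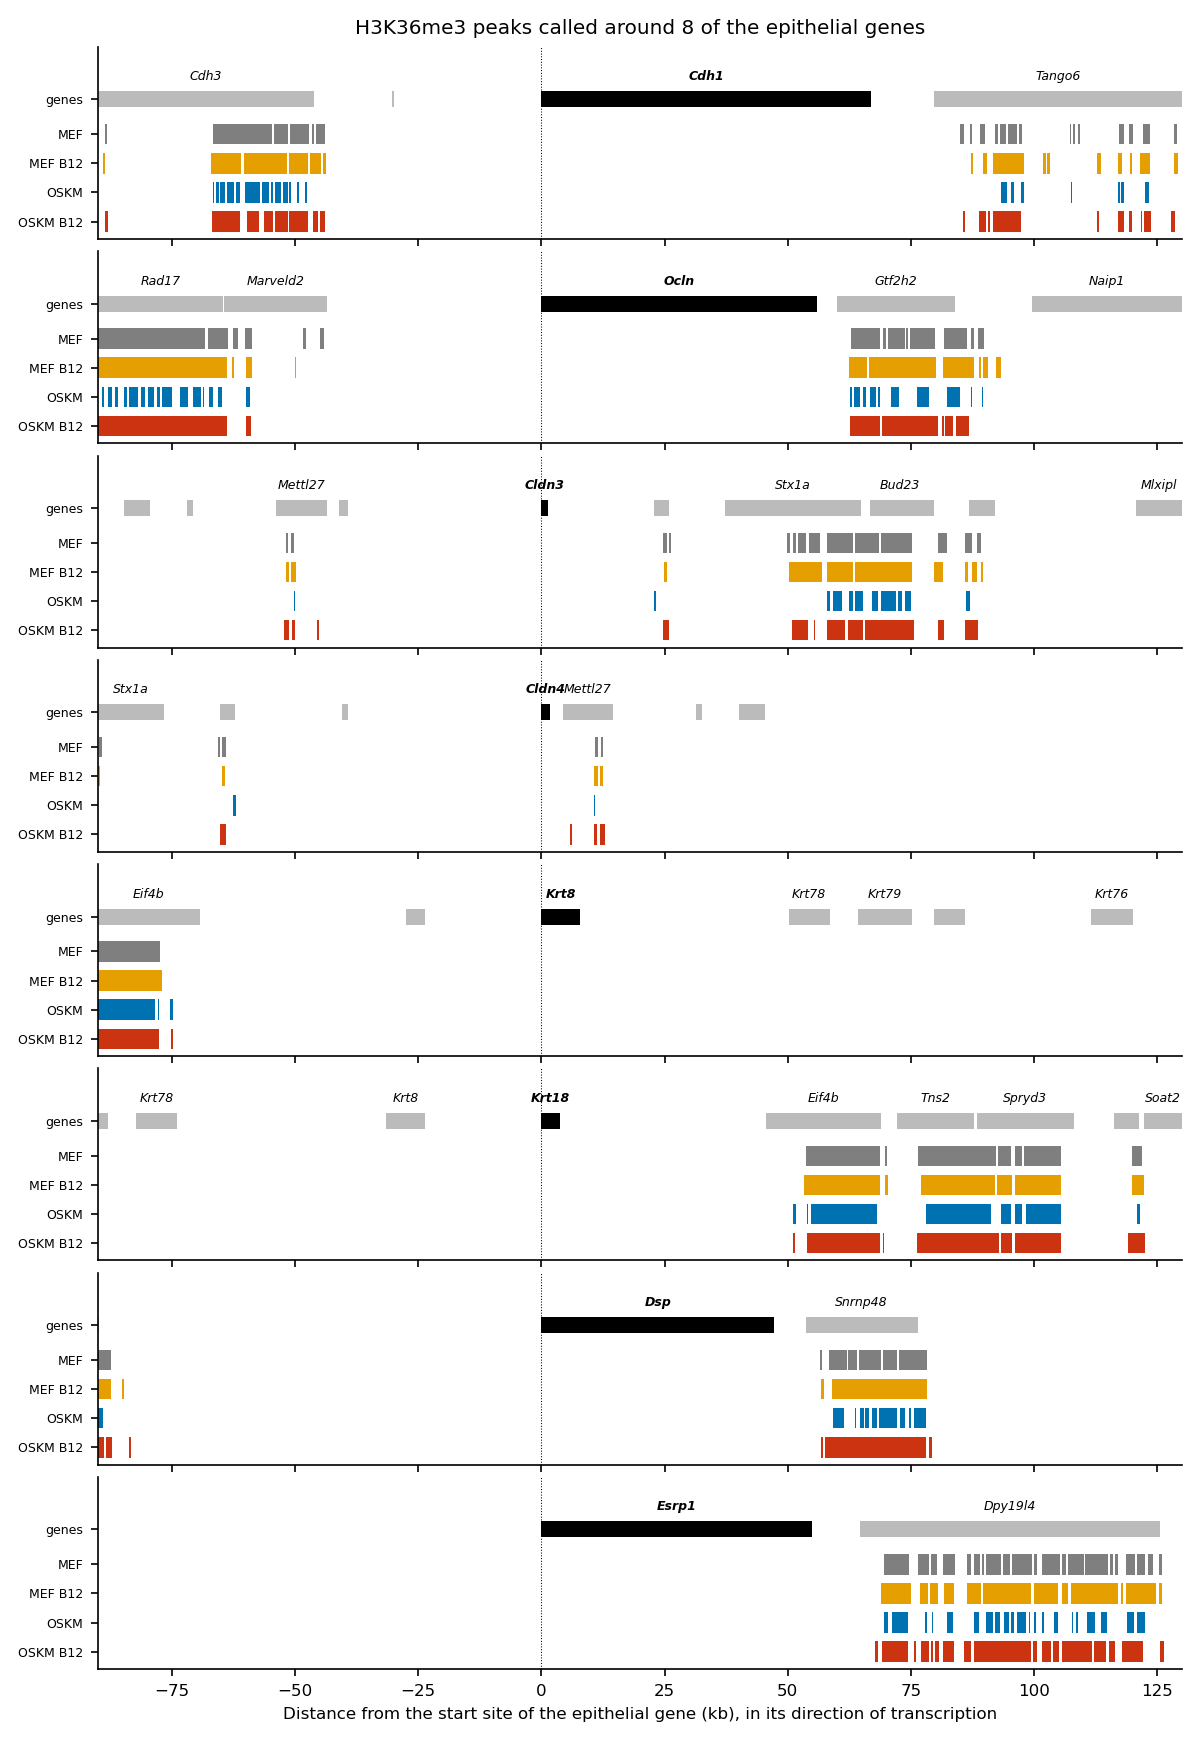
H3K36me3 peaks (coloured bars, 1 row for each library) and protein-coding gene bodies (black for the early epithelial gene, grey for others) around 8 of the 9 genes (all but Epcam), against distance from its start site in kb, drawn in its direction of transcription. No bar lies over a black gene in any row, while peaks cover much of the neighbours Cdh3, Gtf2h2, Snrnp48, Dpy19l4 and Eif4b and are sparser in OSKM.

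Leaving out the downstream side of Epcam, the 9 genes have 13 different nearest protein-coding neighbours that are not themselves among the 9. Of these, 11 had a peak in all 4 libraries, and Gm10073 and Krt78 had none in any. The density of all 11 was lower in OSKM than in MEF, and in OSKM B12 it exceeded that of OSKM for all 11, also when each library was scaled to the bases called in all 4. Virma and Riok1, on the far sides of Esrp1 and Dsp, are given as examples, with densities per 1000000 tags of 0.461, 0.52, 0.215 and 0.535 for Virma and of 0.629, 0.747, 0.407 and 0.736 for Riok1 in the order MEF, MEF B12, OSKM, OSKM B12. With each library scaled to the bases called in all 4, most genes moved in the same directions as the 11 neighbours. Among genes with a peak in either library, 10462 of 11550 were lower in OSKM than in MEF on that scale. In OSKM B12, 11127 of 11736 were higher than in OSKM. The neighbours were looked up after the values of the 9 genes were seen.

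**Figure D3:**
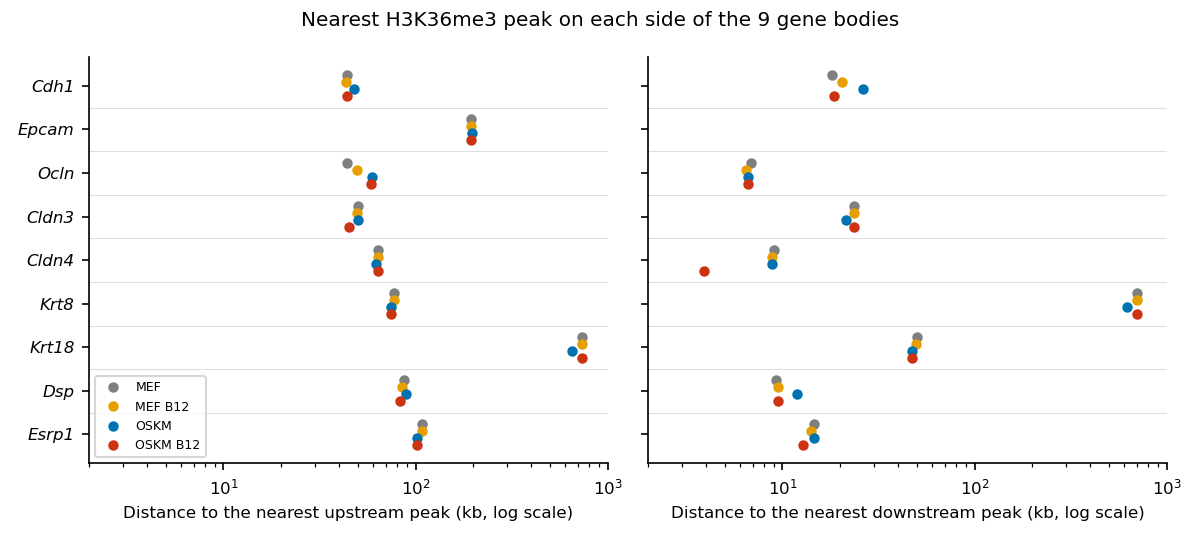
Distance from each of the 9 gene bodies to the nearest H3K36me3 peak upstream (left) and downstream (right, without Epcam), in kb on a log scale, with 1 point for each library. The shortest distance is 3.92 kb, downstream of Cldn4 in OSKM B12, and the points of the 4 libraries lie close together for most genes and sides.

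These neighbours moved with the libraries as a whole. Among genes with a peak in either library, 58.2% of 11550 were at least 1.5-fold lower in OSKM than in MEF and 0.511% at least 1.5-fold higher, on a scale of density plus 0.05. In OSKM B12 against OSKM, 80.4% of 11736 were higher and 0.247% lower. In MEF B12 against MEF, 4.36% of 11687 were higher and 0.958% lower. The median log2 changes over these genes were -0.65, 0.93 and 0.20. No epithelial gene had a peak, so none entered these comparisons.

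The scale of the libraries bears on those figures. Over the bases called in all 4 libraries, the mean pileup per 1000000 tags came to 0.667 in MEF cells and 0.759 in MEF B12 cells, 0.503 in OSKM cells and 0.791 in OSKM B12 cells. When each library was divided by that mean, 28.3% of genes were lower in OSKM than in MEF, 32.6% were higher in OSKM B12 than in OSKM, and the median log2 changes became -0.37, 0.44 and 0.05. A count of 0 peaks is not touched by this scaling.

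Other genes of the epithelial programme were taken from 5 lists of 46 genes, for tight junctions, adherens junctions, desmosomes and keratins, epithelial regulators, and other epithelial surface genes. At least 1 peak was found for 23 of the 46 in MEF cells and 22 in MEF B12 cells, 20 in OSKM cells and 21 in OSKM B12 cells, and 18 had none in any library. These counts are 50%, 47.8%, 43.5% and 45.7% of the list, beside the 51.4%, 52.2%, 48.2% and 52.6% of all genes. When only peaks with a −log10 q of 5 or more were kept, the counts were 14, 12, 4 and 13, or 30.4%, 26.1%, 8.7% and 28.3% of the list, beside 31.5%, 35.2%, 9.28% and 36.7% of all genes. The drop in OSKM at that threshold was thus shared by all genes, of which 19.2% of those with a peak in OSKM kept one, as did 20% of the listed genes. Where 10% or more of the body had to be covered, 16, 15, 10 and 13 of the 46 remained, or 34.8%, 32.6%, 21.7% and 28.3% of the list. The shares of all genes were higher, at 42.2%, 43.5%, 34.9% and 43.7%. Of the listed genes with a peak in OSKM, 50% met this setting, beside 72.5% of all genes with a peak there. In MEF the shares were 69.6% and 82.1%. None of the 46 gained a peak in both doxycycline libraries from none in the others. Pkp2, Ovol1 and Lsr did the reverse, 3 of 46 beside 0.439% of all genes. All covered bases of Lsr lay within overlapping genes, as did 33.1% (MEF) and 57% (MEF B12) of those of Ovol1.

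The mean density over the 46 genes stood at 0.0739 in MEF cells and 0.0854 in MEF B12 cells, 0.0387 in OSKM cells and 0.0839 in OSKM B12 cells. These means rest on peaks called separately in each library, so they combine how much was called with how high the called stretches were. The called length in these genes was 195 kb in MEF cells and 208 kb in MEF B12 cells, 115 kb in OSKM cells and 193 kb in OSKM B12 cells, and the mean pileup per 1000000 tags within it was 0.588, 0.64, 0.499 and 0.675. The ratio of mean density was 0.523 for OSKM to MEF, beside 0.544 over all genes, and it ranged from 0.186 (−log10 q of 5 or more) to 0.694 (scaling to the shared bases). That of OSKM B12 to OSKM was 2.17, beside 2.31 over all genes, and ranged from 1.38 to 7.57 between the same settings. That of MEF B12 to MEF was 1.16, beside 1.19. The direction held under these settings, whereas the sizes did not. Of the listed genes with a peak in either library, 12 of 26 were at least 1.5-fold lower and 1 was higher in OSKM than in MEF. The shares over all genes compared were 58.2% and 0.511%. The median log2 change was -0.46 beside -0.65 over all genes. In OSKM B12 against OSKM, 14 of 25 were higher and 1 was lower, beside 80.4% and 0.247%, with a median of 0.65 beside 0.93. With scaling to the shared bases, 7 of the 26 were lower in OSKM than in MEF, beside 28.3%, with a median of -0.32 beside -0.37. On that scale 5 of the 25 were higher in OSKM B12 than in OSKM, beside 32.6%, with a median of 0.27 beside 0.44. In MEF B12 against MEF without that scaling, none of 23 passed 1.5-fold in either direction, beside 4.36% higher and 0.958% lower over all genes. The median was 0.14 beside 0.20.

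The adherens-junction list was marked throughout, with a peak for all 7 genes in every library. Nectin2, an adhesion receptor of the junction, had the highest density of the 46 genes, at 0.526 in MEF cells and 0.56 in MEF B12 cells, 0.287 in OSKM cells and 0.59 in OSKM B12 cells. The catenin genes Ctnnb1 (0.369, 0.435, 0.275 and 0.503) and Ctnnd1 (0.359, 0.402, 0.194 and 0.39), whose products couple cadherins to the cytoskeleton, were likewise lowest in OSKM. For Ctnnd1, 92.5% to 94.6% of the covered bases also lay within the overlapping gene Gm28635, and for Ctnnb1 42.7% to 48.5% lay within Ulk4 or Mir7090. The cytoplasmic partners of E-cadherin were thus marked in the same cells whose Cdh1 gene had no peak. Other cadherin genes were marked in these cells, namely Cdh3 and, from the mesenchymal list, Cdh11. The covered share of Cdh11 was 57.3%, 58.1%, 28.1% and 60.9% in the order MEF, MEF B12, OSKM, OSKM B12.

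Jup encodes plakoglobin, which serves adherens junctions and desmosomes alike, and 56.6%, 58.6%, 48.7% and 59.2% of its body was covered in the order MEF, MEF B12, OSKM, OSKM B12. Its desmosomal partner Dsp was at 0. In the desmosome and keratin list, 5 of 9 genes (Pkp1, Pkp3, Dsg2, Dsc2 and Krt7) had no peak in any library. Ppl, a plakin related to desmoplakin, was the only one with a peak in all 4, at 15%, 29.4%, 7.81% and 14.5% of its body, in part from a peak that also lay over Ubn1. Krt19, a further simple-epithelial keratin, had 1 peak in OSKM B12 over 5.5% of its body and none in the other libraries.

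Among tight-junction genes, 4 of 11 (Cldn1, Cldn6, Marveld3 and Cgn) were at 0 in every library. Cldn12, a claudin of broad expression, was the most densely marked of the list, with 41.4% of its body covered in MEF cells and 56.8% in MEF B12 cells, 17.6% in OSKM cells and 51.2% in OSKM B12 cells. Marveld2, which encodes the occludin relative tricellulin and is the next protein-coding gene upstream of Ocln, had 22.9%, 13.1%, 3.88% and 8.9% covered. In every library except OSKM, part of this was a peak that ran in from Rad17. Tjp3, which encodes a scaffold of the junction, had a density of 0.0631, 0.0757, 0.0493 and 0.105, from a peak that also lay over Apba3. Cldn7 had 12.7% of its body covered in OSKM and 0.525% in MEF, and none in MEF B12 or OSKM B12. Both peaks also lay over its neighbour Elp5. Cldn7 was the 1 gene of the 46 that was at least 1.5-fold higher in OSKM than in MEF, and it was named after its values were seen.

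Among the regulators, relatives also differed. Esrp2, which acts beside Esrp1 in epithelial splicing, had 41.9% of its body covered in MEF cells and 43.4% in MEF B12 cells, 38.4% in OSKM cells and 47.8% in OSKM B12 cells, from peaks that also lay over Nfatc3. Esrp1 had none. Klf5, a Krüppel-like factor of epithelial progenitors, had 49.9% covered in MEF and 57.1% in MEF B12, no peak in OSKM, and 26.2% in OSKM B12. Ovol1, a repressor of mesenchymal genes, had 11% in MEF and 12.7% in MEF B12 and none with doxycycline. Ovol2, Elf3 and Tfap2c had no peak in any library, and each of Grhl1, Grhl2 and Grhl3 had a single peak in 1 library over at most 1.29% of its body.

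Of the other surface genes, 6 of 10 had no peak in any library. Prss8, which encodes the membrane protease prostasin, had 47%, 53.5%, 36.8% and 36.3% of its body covered in the order MEF, MEF B12, OSKM, OSKM B12, from peaks that also lay over Kat8. Muc1, an apical mucin, had 10.5%, 9.25%, 2.47% and 29.1%, with a peak in each library that also lay over Trim46. Rab25, a GTPase of epithelial recycling, had 11.5%, 13.2%, 0% and 9.96%. In Lsr, all of the covered bases, 3.75% of the body in MEF and 5.3% in MEF B12, lay within overlapping genes.

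The mesenchymal side of the transition was measured in 11 regulators and markers, of which 10 had a peak in both libraries without doxycycline, 8 in OSKM cells and 9 in OSKM B12 cells. Snai1, which encodes the repressor Snail, had 90% of its body covered in MEF cells and 79.1% in MEF B12 cells, 71.9% in OSKM cells and 84% in OSKM B12 cells. Zeb1 had 14.7%, 14.6%, 6.92% and 15.2%, and Zeb2 28.2%, 34.5%, 9.12% and 32.6%. Snai1, Zeb1 and Zeb2 were thus marked in all 4 libraries, whereas Snai2, also of the Snail family, was not. Snai2 had a peak over 11.1% of its body in MEF and 15.3% in MEF B12 and none in OSKM or OSKM B12. Whether the products of these genes bear on the 9 epithelial genes was not tested. Twist1 had no peak in any library.

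Fn1, the gene for fibronectin, had a density of 0.845 in MEF cells and 0.949 in MEF B12 cells, 0.508 in OSKM cells and 0.996 in OSKM B12 cells, and Vim, the mesenchymal intermediate filament, one of 0.74, 0.873, 0.435 and 0.732. At least 72.9% of either body was covered in every library. These are the densest genes of the list and do not stand for the rest. Twist2 had 13.8%, 10.6%, 4.06% and 27.2% of its body covered in the order MEF, MEF B12, OSKM, OSKM B12, and Cdh2, the gene for N-cadherin, had 1.79% in MEF and no peak in OSKM. The median covered share of the 11 genes was 28.2% in MEF cells and 34.5% in MEF B12 cells, 9.12% in OSKM cells and 32.6% in OSKM B12 cells. Of 10 mesenchymal genes compared, 9 were at least 1.5-fold lower in OSKM than in MEF, beside 58.2% of all genes compared, and none was higher. The median log2 change was -0.72 beside -0.65 over all genes. With scaling to the shared bases, 5 of the 10 were at least 1.5-fold lower, beside 28.3%, and the median was -0.59 beside -0.37. In OSKM B12 against OSKM, 8 of 9 were at least 1.5-fold higher, beside 80.4%, with a median of 0.91 beside 0.93. With scaling to the shared bases, 4 of 9 were higher by that much, beside 32.6%, with a median of 0.46 beside 0.44. The change with vitamin B12 in MEFs was small, with a median of 0.10, and turned to -0.04 when scaled to the shared bases.

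**Figure D4:**
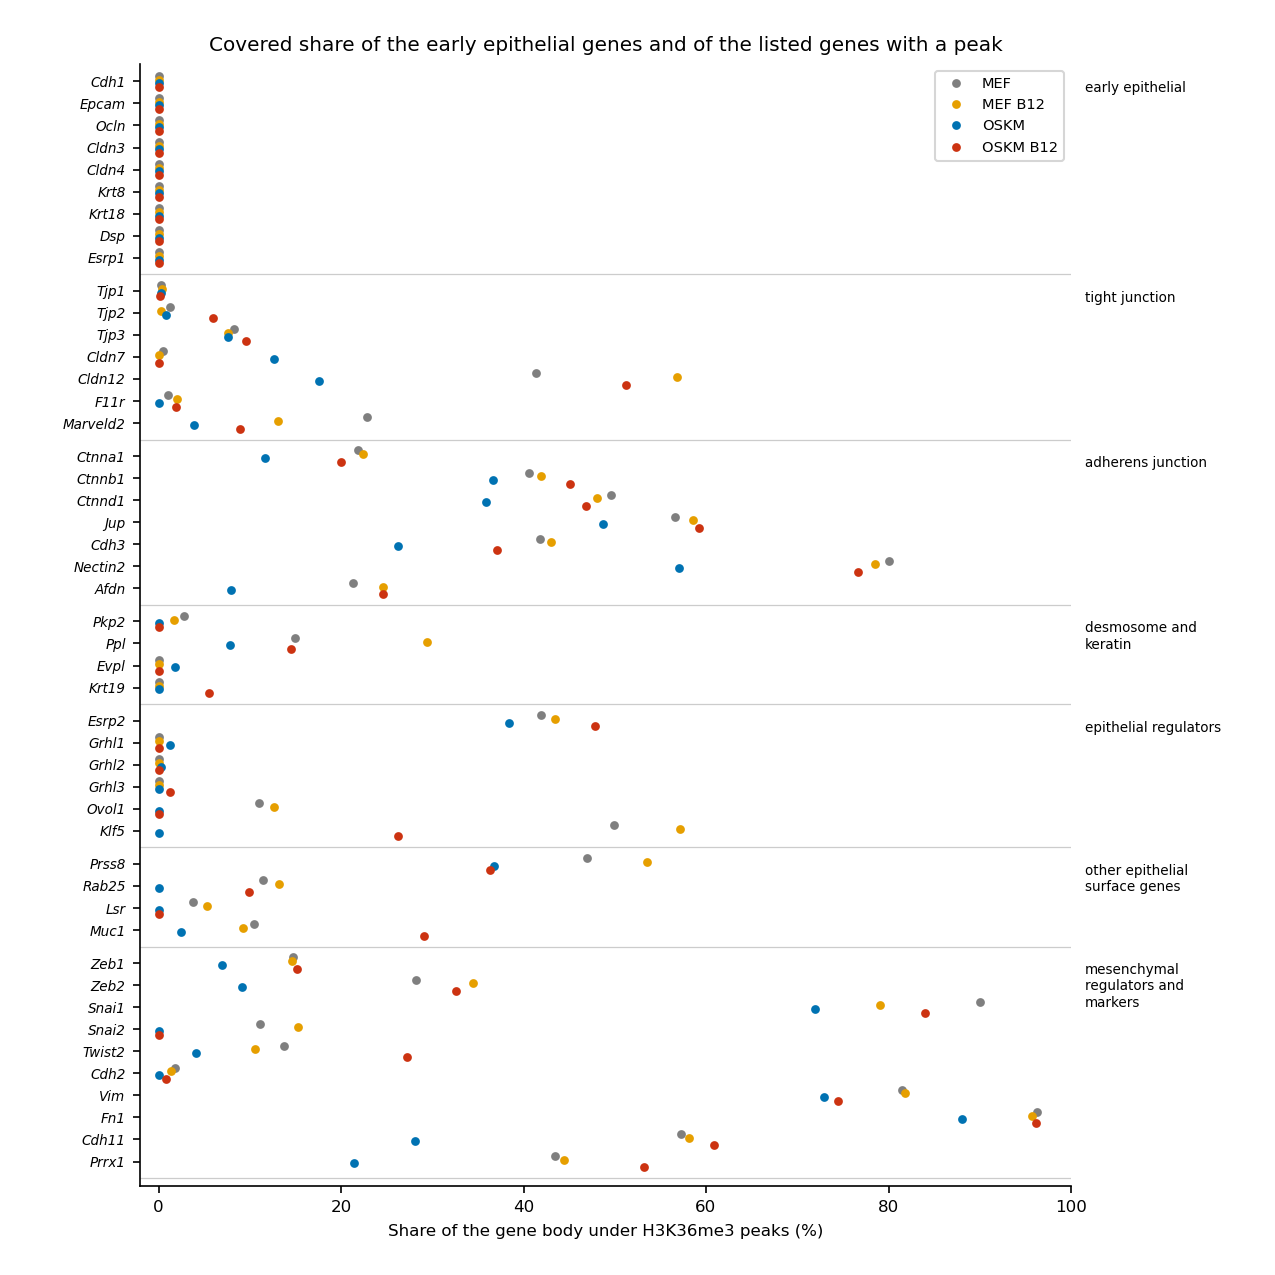
Share of the gene body under H3K36me3 peaks (x axis, percent) in the 4 libraries (coloured points), for the 9 early epithelial genes and for every gene of the epithelial and mesenchymal lists that had a peak in at least 1 library. All points of the 9 genes lie at 0, those of the adherens-junction genes between 7.94% and 80.1%, and those of Fn1 between 88% and 96.3%.

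The pluripotency list was close to the 9 genes in this respect, with 8 of 10 genes, among them Nanog and Sall4, without a peak in any library. Fbxo15 had peak bases in all 4, 34.3% to 92.2% of which lay within the overlapping gene Timm21, and Zfp42 had 1 peak in OSKM over 2.42% of its body. At the genomic loci of the cassette factors, Pou5f1 and Sox2 had no peak. Reads from the cassette itself were not separated from those of these genes. Klf4 had 46%, 42.6%, 10.3% and 31.6% of its body covered in the order MEF, MEF B12, OSKM, OSKM B12, and Myc 8.69%, 26.7%, 15.2% and 23.9%.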

How the data were processed

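H3K36me3 ChIP–seq and input libraries of MEF, MEF B12, OSKM and OSKM B12 cells, 1 each, were grouped by their titles. The authors aligned 75-base reads to mm10 with Bowtie 0.12.9, kept uniquely aligned reads, removed duplicates and called broad peaks against each library's own input with MACS2 2.2.6 (q of 0.05, 0.1 for linked regions), at an effective genome size of 3209286105. The deposited peak lists give each peak's pileup signal, fold enrichment ratio, and −log10 p and −log10 q. The extract protocol names the antibody H3K3me3, whereas the label reads H3K36m3. Peaks on unplaced scaffolds (1 to 16 per library) were left out.

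From these files, covered share, density (pileup per 1000000 tags, averaged over the gene body, 0 outside peaks) and distances were computed with Python 3.11, and the interval arithmetic was tested on simulated data. Changes were taken as log2(density + 0.05), with a change called from 1.5-fold. With 1 library per condition no test was possible. Named were all 9 genes, overlapping genes, and from each list the 3 with the highest mean density and those gained or lost in both doxycycline libraries. Other genes were named after their values were seen. The planned search for genes of like pattern was void, since all 9 were at 0. Uniqueness counted exact 75-base windows in GRCm38.p6 without patches. The downstream side of Epcam is not reported here. The 9 genes and all lists were chosen with earlier results of these data known. Alternatives covered stricter peaks, an equal number of peaks, other gene boundaries and other scalings.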

Additional observations from a re-analysis of the deposited data

Results flagged for a closer look

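The genes named by mean density, or by gain or loss with doxycycline, were examined for opposite changes with vitamin B12. Of those with a peak in all 4 libraries, 4 had a density that fell in MEFs and rose in OSKM cells. With 1 library per condition the difference between the 2 settings was not tested. Marveld2, the tricellulin gene upstream of Ocln, changed by -0.29 on the log2 scale in MEFs and by 0.57 in OSKM cells. Snai1 changed by -0.03 and 0.80, Klf4 by -0.18 and 1.20, and the neuronal gene Elavl3 by -0.29 and 0.47, respectively. The change of Snai1 in MEFs was slight. Twist2, named after its values were seen, changed by -0.20 and 1.43. The median change of all genes with a peak in either library was 0.20 in MEFs and 0.93 in OSKM cells. Scaled to the shared bases, 3838 of 11687 genes were lower in MEF B12 than in MEF. On that scale 11127 of 11736 were higher in OSKM B12 than in OSKM. The changes of the 4 genes on the same scale were -0.39 and 0.35 for Marveld2 and -0.20 and 0.22 for Snai1. For Klf4 they were -0.32 and 0.81, and for Elavl3 -0.31 and 0.38. How many of all genes moved in opposite directions was not counted, so the 4 genes cannot be called unusual. Peaks of Marveld2 outside OSKM and of Elavl3 in all libraries also lay over Rad17 and Prkcsh, whose part in these values was not tested.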

How the results depend on the processing

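No paired analysis was possible because there was only 1 library for any condition. For the 9 early epithelial genes, the count with a peak and the covered share stayed at 0 in all 4 libraries under every setting listed in the methods. A ratio of their densities does not exist. With 5 kb added on each side, chosen after seeing the data, 1 gene (Cldn4) had a peak in OSKM B12, over 3.89% of the extended stretch. For the 46 genes of the epithelial lists, the counts in the order MEF, MEF B12, OSKM, OSKM B12 were 14, 12, 4 and 13 when peaks were limited to a −log10 q of 5 or more (31.5%, 35.2%, 9.28% and 36.7% of all genes). With at least 10% of the body covered, they were 16, 15, 10 and 13 (42.2%, 43.5%, 34.9% and 43.7% of all genes). The density ratio of OSKM to MEF became 0.186 with the stricter q, 0.556 without bases of other genes, 0.542 with fold enrichment and 0.694 with scaling to the shared bases. That of OSKM B12 to OSKM became 7.57, 2.06, 1.91 and 1.38 under the same settings and 1.93 with undivided pileup. That of MEF B12 to MEF became 1.03 with undivided pileup and 1.02 with scaling to the shared bases. No ratio changed direction. Peaks alone were analysed, so signal under the calling threshold was not measured.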

Other observations

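Tek, the endothelial receptor for angiopoietins, was covered more in OSKM than in MEF, whereas most genes with a peak were lower in OSKM. Its log2 change of 0.42, on the scale of density plus 0.05, did not reach 1.5-fold. Without the added 0.05, the ratio of its low densities was 3.01. In OSKM B12 against OSKM it changed by 1.16, in the direction of most genes, and in MEF B12 against MEF by 0.10. The covered share of Tek stood at 2.84% in MEF cells and 3.63% in MEF B12 cells, 7.85% in OSKM cells and 26.6% in OSKM B12 cells, from 7, 7, 17 and 31 peaks, and its density was 0.00993, 0.0144, 0.0299 and 0.128. Of the other endothelial markers, Pecam1 and Cdh5 had no peak in any library, and Kdr had 1 peak in OSKM B12 over 0.903% of its body.

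Among the neural markers, Sox10 had no peak and Map2 at most 0.143% of its body covered. Tubb3 had 25.1%, 31.7%, 0% and 25.6% of its body covered in the order MEF, MEF B12, OSKM, OSKM B12, all of it within the overlapping gene Gm20388.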
